A study of Homo sapiens with 8 samples.

Results

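Telomerase and the machinery that makes its RNA were followed through 10 genes in HEL cells, a human erythroleukaemia line that depends on an activated JAK2 kinase. The genes were named by their known role in the enzyme, with earlier results of these data known: TERT, TERC, DKC1, NOP10, NHP2, GAR1, NAF1, WRAP53, PARN and SHQ1. Each was read from the probe set with the highest mean among those annotated to that gene alone. All 10 were on the array, among 17958 genes with such a probe set, and all 10 passed the filter on dim genes (a mean of at least 4.37 on the log2 scale), which left 12570 genes for testing.

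Total RNA was measured on 8 Affymetrix arrays after 48 h of treatment. The 4 groups were the combination of both agents, 20 µM GRN163L, 0.5 µM LY2784544 and vehicle control (DMSO). The labels do not restate the doses for the combination, and reading it against 1 agent takes them to equal those used alone. Every group held 2 arrays, 1 from each of 2 separate experiments, so the spread is between experiments on 1 line, and the number of arrays limits the precision. GRN163L (imetelstat) is a lipid-bearing oligonucleotide complementary to the template of the telomerase RNA, and LY2784544 (gandotinib) inhibits JAK2. Values are log2 RMA signals, and each difference is a log2 difference given as group named first minus group named second.

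Telomerase adds telomeric repeats to chromosome ends. TERT is the reverse transcriptase and TERC the RNA that carries the template. TERC ends in an H/ACA domain, the fold shared with the small nucleolar RNAs that guide pseudouridine formation, and this domain binds dyskerin (DKC1), NOP10, NHP2 and GAR1. SHQ1 holds newly made dyskerin, and NAF1 occupies the place of GAR1 during assembly. WRAP53 encodes TCAB1, which takes the particle to Cajal bodies, and PARN trims the adenylated end of new TERC. Telomerase is active in most leukaemic cells and kept low in most somatic tissue.

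As a check of the line, all 7 measured of 10 listed erythroid and megakaryocytic genes, GATA1 and ITGA2B among them, passed the filter with mean levels of 6.91 to 11.24. Of 11 measured markers of T cells, B cells, epithelium, fibroblasts and hepatocytes, 4 passed it, with means of at most 5.31. SOCS3, a feedback target of JAK2 and STAT signalling, had 7.35 and 7.10 with LY2784544 in experiments 1 and 2, against 8.29 and 8.41 in control, a difference of -1.13 (adjusted p 0.0251). That call was lost without either control array (adjusted p 0.133 and 0.132), either LY2784544 array (0.0683 and 0.0927) or either GRN163L array (0.0667). The same call was lost with the compared groups only (limma adjusted p 0.0545) and with quantile normalization (0.0505). SOCS3 had 5.23 and 5.58 in the combination and 7.02 and 6.85 with GRN163L alone, so it does not single out LY2784544. The average effect on SOCS3 was -1.62 for GRN163L (limma adjusted p 0.00437) and -1.33 for LY2784544 (0.00176). For GRN163L the call of this average effect was lost without GRN163L array 2, at -1.575. Across the genes tested, the median signal came to 7.23 and 7.36 in the combination, 7.46 and 7.51 with GRN163L, 7.33 and 7.41 with LY2784544 and 7.48 and 7.46 in control. The combination arrays therefore had a median 0.175 below control, and the arrays with LY2784544 a median 0.146 below those without it.

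TERC, the RNA component, had the widest range among the 10 genes. It lies on chromosome 3 (GRCh38.p14, chr3:169764610-169765060), where its 451 bases overlap no other annotated gene. Its level was 7.95 and 8.43 in the combination, in experiments 1 and 2, 8.94 and 8.57 with GRN163L, 9.78 and 9.36 with LY2784544, and 9.58 and 9.26 in control. All 4 arrays with GRN163L, alone or combined, lay below all 4 arrays without it, as for 3.31% of genes tested, and the combination lay below GRN163L alone. The arrays with LY2784544 alone overlapped those of control.

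**Figure D1:**
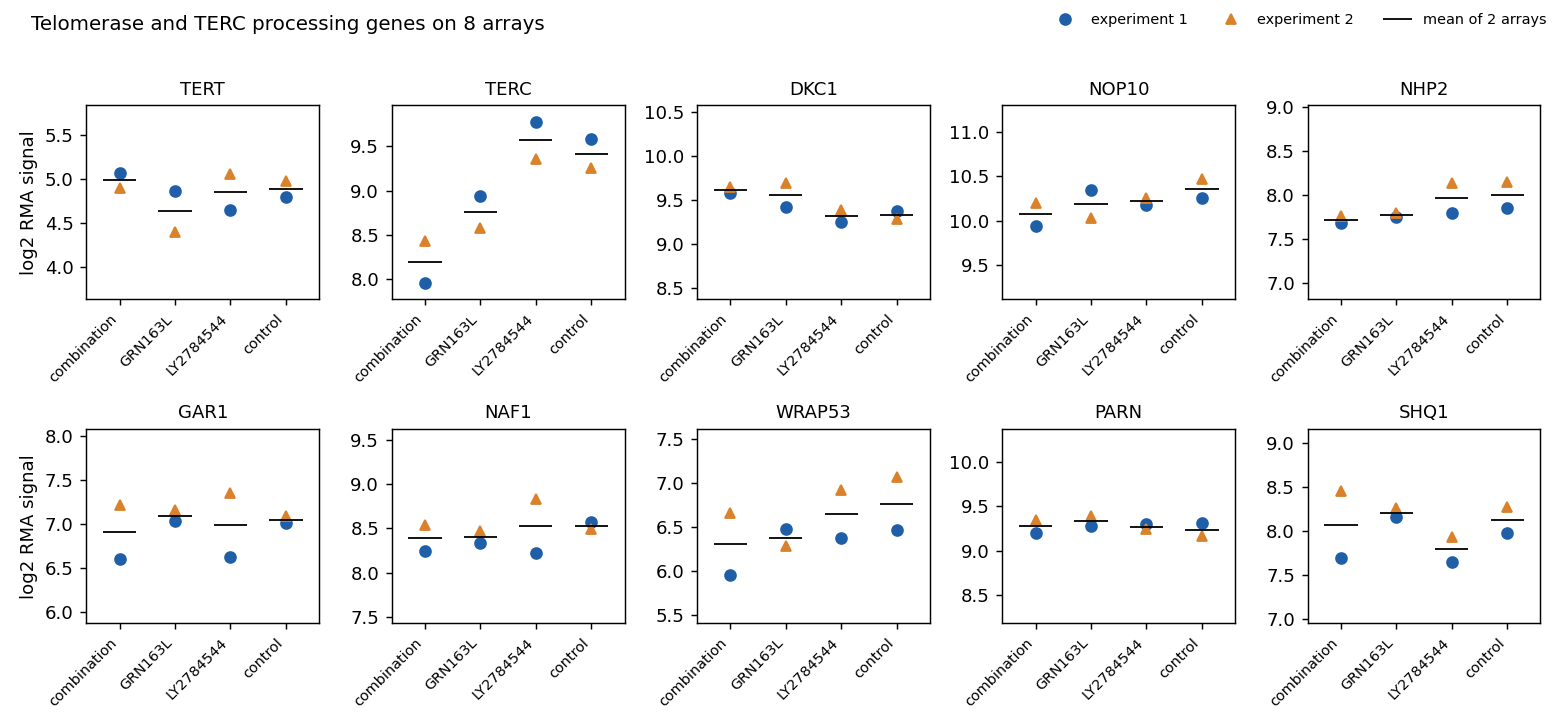
Log2 RMA signal (vertical axis) of the 10 telomerase genes on each of the 8 arrays, by treatment group along the horizontal axis and with 1 symbol for each experiment. TERC separates by GRN163L, at 7.95 to 8.94 with the agent and 9.26 to 9.78 without it, while every pair of groups overlaps for 3 of the 9 protein genes, GAR1, WRAP53 and PARN.

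With the combination TERC fell by 1.23 relative to control (95% interval -1.77 to -0.69, limma adjusted p 0.0339 over all genes tested). That is a signal 0.426 times that of control, and the difference was -1.63 in experiment 1 and -0.83 in experiment 2. It was the 1 gene of the 10 called in this comparison at an adjusted p below 0.05, where 3.47% of all genes tested were called. With the array medians set equal the difference was -1.06 (adjusted p 0.0524), and the call was lost. Leaving out both the LY2784544 array and the combination array of experiment 1, which have the lowest medians, gave -0.99 (adjusted p 0.102). Without single arrays the call was lost for either control array (-1.07 with adjusted p 0.149, and -1.39 with 0.107), either GRN163L array (-1.23 with 0.0637) and combination array 1 (-0.99 with 0.158).

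Alone against control, GRN163L gave a TERC difference of -0.67 (SE 0.24, interval -1.21 to -0.12), with -0.64 and -0.69 in the 2 experiments. Its unadjusted p was 0.0220 and its limma adjusted p 0.995, and no gene of the array was called in that comparison (0% of genes tested, 595 at an unadjusted p below 0.05). GRN163L added to LY2784544, that is the combination against LY2784544, gave -1.38 (adjusted p 0.0681), with -1.83 and -0.93 in the 2 experiments. The experiment as a block brought that value to an adjusted p of 0.0350, and 0.31% of genes tested were called in the comparison without the block.

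Over both backgrounds, the 4 arrays with GRN163L averaged 8.47 ± 0.41 and the 4 without it 9.495 ± 0.23 (SD, n = 4 each). The average effect of GRN163L was -1.02 (SE 0.17, interval -1.41 to -0.64), with -1.24 in experiment 1 and -0.81 in experiment 2. Its limma adjusted p of 0.0501 missed the threshold, and the block gave 0.0268. In that contrast 0.382% of genes tested were called. A lower amount of TERC in the cells and a lower yield of TERC from RNA that still holds the oligonucleotide cannot be told apart here, nor can fewer cells that express a gene and less of its RNA per cell.

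LY2784544 alone gave a TERC difference of 0.15 against control (interval -0.39 to 0.69, adjusted p 0.847), a comparison in which 1.27% of genes tested were called. Added to GRN163L, that is the combination against GRN163L, it gave -0.57 (unadjusted limma p 0.0432, adjusted p 0.325), where 0.541% of genes tested were called. An unadjusted p below 0.05 was reached there by 14.4% of genes tested. The difference between these LY2784544 effects, the interaction, was -0.72 (SE 0.34, adjusted p 0.999), and 0% of genes tested were called, with 464 at an unadjusted p below 0.05. An effect of LY2784544 on TERC that depends on GRN163L was thus not shown at 2 arrays a group. Over both backgrounds LY2784544 gave -0.21 (adjusted p 0.496), where 4.46% of genes tested were called. No member had its 4 arrays with LY2784544 all below or all above the 4 without it, a pattern of 8.66% and 3.33% of genes tested.

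The range of the 4 group means was 1.38 for TERC, at percentile 97.8 of the genes tested, whose median range was 0.385. For the 9 protein genes this range ran between 0.10 for PARN, at percentile 2.82, and 0.455 for WRAP53, at percentile 59.8. In the order of its group means TERC was highest with LY2784544, then in control, with GRN163L and in the combination. Control and LY2784544 overlapped. GRN163L lay below control without overlap, as did 16.4% of genes tested, and the combination below GRN163L, as did 31.3%, so such separation of 2 arrays against 2 is common on these arrays.

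**Figure D2:**
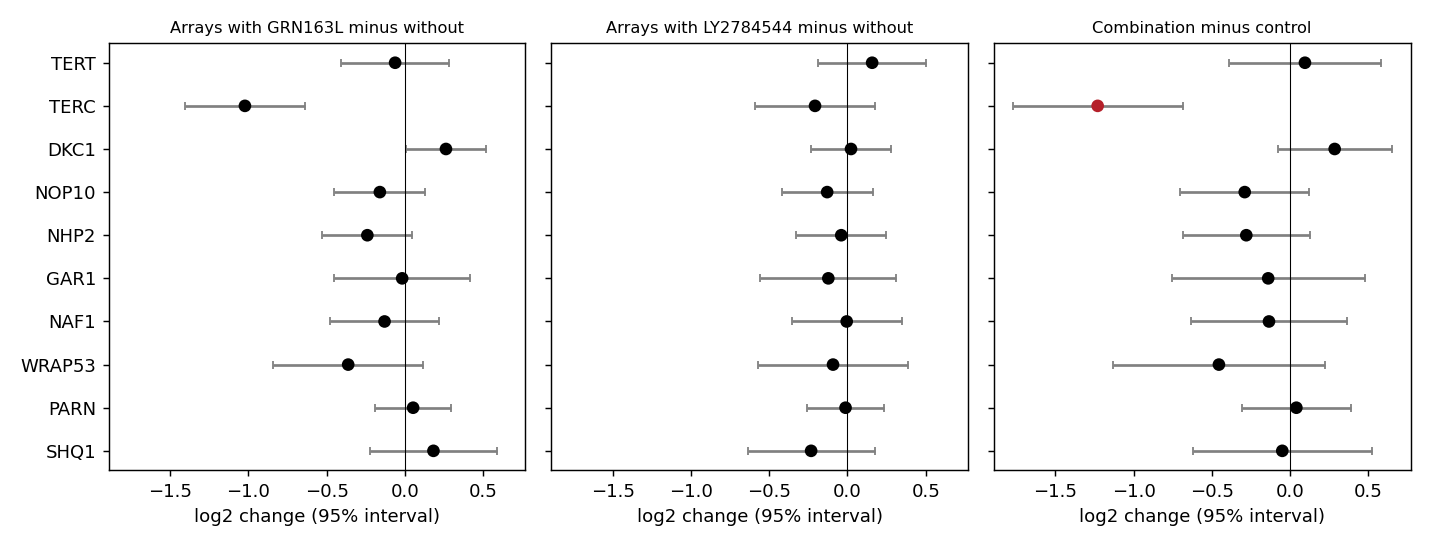
Log2 difference (horizontal axis) with its 95% interval for the 10 telomerase genes in 3 panels: arrays with GRN163L minus those without, arrays with LY2784544 minus those without, and combination minus control. The red point marks the 1 call, TERC at -1.23 in the combination; the protein genes there lie between -0.455 and 0.285.

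TERT, the catalytic subunit, had 5.07 and 4.90 in the combination, 4.87 and 4.40 with GRN163L, 4.65 and 5.06 with LY2784544, and 4.80 and 4.98 in control. Every pair of groups overlapped on this gene except the combination and GRN163L. There the combination lay above, as for 14.4% of genes tested. The mean of TERT, 4.84, stood close to the filter, where RMA compresses differences. The combination differed from control by 0.10 (interval -0.39 to 0.58, adjusted p 0.824). The average effect of GRN163L on TERT was -0.06 (interval -0.41 to 0.28) and that of LY2784544 0.16 (interval -0.19 to 0.50). None of the 8 contrasts called TERT.

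DKC1 encodes dyskerin, the pseudouridine synthase that holds the H/ACA fold. Its level was 9.58 and 9.64 in the combination, 9.42 and 9.69 with GRN163L, 9.25 and 9.38 with LY2784544, and 9.37 and 9.28 in control. All 4 arrays with GRN163L lay above all 4 without it, a pattern that 3.04% of genes tested shared. The average effect of GRN163L was 0.26 (interval 0.01 to 0.52), with 0.19 and 0.34 in the 2 experiments. Its unadjusted limma p was 0.0463 and its adjusted p 0.324, in a contrast where 15% of genes tested had an unadjusted p below 0.05. DKC1 hosts SNORA56, an H/ACA RNA of its own, which had a difference of -0.92 in the combination against control. Its limma adjusted p was 0.132, and 0.0276 with the experiment as a block, which called it lower. The average effect on SNORA56 was -0.17 for GRN163L (limma adjusted p 0.780) and -0.745 for LY2784544 (0.0971).

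NHP2, a core protein of the particle, had 7.68 and 7.76 in the combination, 7.75 and 7.79 with GRN163L, 7.80 and 8.14 with LY2784544, and 7.85 and 8.15 in control. It was the other gene beside TERC with every GRN163L array below every array without it, a pattern of 3.31% of genes tested. The average effect of GRN163L was -0.24 (adjusted p 0.419). A second probe set of NHP2 had a larger average effect, -0.44, and its arrays overlapped, at 7.29 to 7.69 with GRN163L and 7.57 to 8.33 without it.

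NOP10, the small protein that bridges dyskerin and NHP2, had 9.94 and 10.20 in the combination, 10.35 and 10.03 with GRN163L, 10.18 and 10.26 with LY2784544, and 10.25 and 10.47 in control. The combination differed from control by -0.29 (adjusted p 0.368), with the same sign in both experiments. GAR1, which completes the mature particle, had 6.60 and 7.22 in the combination, 7.03 and 7.16 with GRN163L, 6.63 and 7.35 with LY2784544, and 7.01 and 7.09 in control. The difference of the combination from control was -0.14 for GAR1 (adjusted p 0.790), and its experiments opposed each other, at -0.41 and 0.13.

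The promoter windows of 3 of these genes (RefSeq, GRCh38.p14, 250 bases before to 50 after the start, gene strand, 5′ to 3′) are shown for the motifs they hold. DKC1 and NHP2 are the protein genes that separated by GRN163L, and NOP10 has the most E-boxes among the members with a window. Capitals mark an E-box (CACGTG) or a GC box (GGGCGG or its reverse complement CCGCCC), and adjacent capitals can hold overlapping copies.
DKC1, chrX:154762614-154762913, plus strand: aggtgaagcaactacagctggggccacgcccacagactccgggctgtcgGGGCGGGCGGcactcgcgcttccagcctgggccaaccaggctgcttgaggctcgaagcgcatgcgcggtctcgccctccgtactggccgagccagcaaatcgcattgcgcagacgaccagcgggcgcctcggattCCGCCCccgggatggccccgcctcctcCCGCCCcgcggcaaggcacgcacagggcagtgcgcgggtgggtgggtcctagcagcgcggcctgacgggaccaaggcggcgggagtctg
NHP2, chr5:178153836-178154135, minus strand: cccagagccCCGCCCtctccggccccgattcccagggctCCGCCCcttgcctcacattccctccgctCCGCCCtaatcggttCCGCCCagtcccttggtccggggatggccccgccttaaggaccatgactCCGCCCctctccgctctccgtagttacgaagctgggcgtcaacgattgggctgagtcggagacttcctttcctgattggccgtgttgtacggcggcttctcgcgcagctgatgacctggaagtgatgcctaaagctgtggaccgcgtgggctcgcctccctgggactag
NOP10, chr15:34343087-34343386, minus strand: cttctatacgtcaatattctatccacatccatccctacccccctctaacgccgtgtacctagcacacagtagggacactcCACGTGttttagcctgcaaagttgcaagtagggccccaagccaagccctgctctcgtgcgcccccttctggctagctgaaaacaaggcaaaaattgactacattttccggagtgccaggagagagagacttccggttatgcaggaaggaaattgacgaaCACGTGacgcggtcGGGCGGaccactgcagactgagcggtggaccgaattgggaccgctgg

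An E-box is the motif bound by MYC and MAX, and a GC box that of SP1. Searching both strands, DKC1 held 4 GC boxes, 2 of them overlapping, NHP2 held 5, and NOP10 held 1 GC box and 2 E-boxes. Of all 35116 promoter windows of this length, 7.26% held an E-box and 45% a GC box, with 2 or more GC boxes in 26.7%. TERT, whose arrays with and without GRN163L overlapped, held 3 GC boxes. A link between these motifs and either agent was not tested. Of the members, 8 had windows, 11 in all, and TERC and NAF1 had none. An E-box lay in 3 of the 11 windows, 1 each of TERT, NOP10 and GAR1, and the other GAR1 window held none. MYC, whose product binds E-boxes, differed by -0.25 in the combination against control (adjusted p 0.331).

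NAF1 and SHQ1 act in assembly. NAF1 had 8.25 and 8.54 in the combination, 8.33 and 8.47 with GRN163L, 8.22 and 8.83 with LY2784544, and 8.57 and 8.49 in control. SHQ1 had 7.69 and 8.45 in the combination, 8.15 and 8.26 with GRN163L, 7.65 and 7.93 with LY2784544, and 7.97 and 8.27 in control. NAF1 with GRN163L lay below control, as did 16.4% of genes tested. SHQ1 with LY2784544 lay below GRN163L, as did 27.8%, and below control, as did 25.2%. The other groups of both genes overlapped. The combination differed from control by -0.14 for NAF1 (adjusted p 0.747) and by -0.05 for SHQ1 (adjusted p 0.929).

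WRAP53, the Cajal body factor, had 5.95 and 6.66 in the combination, 6.47 and 6.28 with GRN163L, 6.37 and 6.92 with LY2784544, and 6.46 and 7.06 in control. Its difference of -0.46 in the combination against control was the lowest among the protein genes, and its interval ran between -1.13 and 0.22 (adjusted p 0.391). PARN, the poly(A) ribonuclease that matures TERC, had the smallest range of group means, at 9.20 and 9.35 in the combination, 9.28 and 9.39 with GRN163L, 9.30 and 9.24 with LY2784544, and 9.31 and 9.16 in control. The combination differed from control by 0.04 for PARN (interval -0.31 to 0.39).

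Across the 10 genes, the median difference of the combination from control was -0.14, with 7 genes lower and 3 higher, beside -0.07 over all genes tested, of which 57.1% were lower. For single protein genes the 95% intervals reached 0.346 to 0.680 to either side in the comparisons of 2 groups, so smaller changes could not be resolved. In all 4 groups 3 genes, GAR1, NHP2 and SHQ1, were higher in experiment 2, whereas TERC was higher in experiment 2 in 1 of 4 groups. Over the 8 arrays TERC correlated with DKC1 at r = -0.85, with NOP10 at 0.60 and with NHP2 at 0.52, a description in which arrays share treatment and experiment.

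Genes around the telomerase particle were read from lists of known partners, and counts are for the combination against control, where 2.71% of genes tested were called lower and 0.756% higher. Called or not, 57.1% of genes tested were lower there. Of 17 tested genes that trim, tail or degrade TERC, 13 were lower and 1 was called lower. The called gene was EXOSC5, a core subunit of the RNA exosome, which degrades RNA from its end. EXOSC5 had 8.63 and 9.09 in the combination against 9.94 and 9.79 in control, a difference of -1.01 (SE 0.19, adjusted p 0.0303). PABPN1, a nuclear poly(A) binding protein, differed by 0.475 (adjusted p 0.116). The list's median was -0.29.

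Of 9 assembly helpers 8 were lower and 1 was called lower. The called gene was RUVBL2, an ATPase of the R2TP complex that helps assemble H/ACA particles. RUVBL2 had 7.60 and 8.39 in the combination, 8.66 and 8.69 with GRN163L, 8.59 and 9.17 with LY2784544, and 9.17 and 9.42 in control, a difference of -1.30 in the combination against control (SE 0.28, adjusted p 0.0452). Its partner RUVBL1 differed by -0.69 (adjusted p 0.0804, and 0.0270 with the experiment as a block). With the array medians set equal, RUVBL2 had an adjusted p of 0.0522. The list's median was -0.36.

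Of 10 recruitment and telomere end genes 7 were lower and 1 was called lower. The called gene was ACD, which encodes TPP1, the shelterin protein that recruits telomerase. ACD had 7.43 and 7.59 in the combination against 8.13 and 8.42 in control, a difference of -0.77 (adjusted p 0.0447, and 0.0854 with the array medians set equal). PIF1, a helicase that removes telomerase from ends, differed by -0.68 (adjusted p 0.124), and the list's median was -0.23. None of the 15 regulators of TERT transcription was called; WT1 had the lowest p, at -0.78 (adjusted p 0.0614), and the block called it at 0.0177. The calls of all 3 genes were lost without either control array (adjusted p 0.133 and 0.117 for EXOSC5, 0.130 and 0.191 for RUVBL2, 0.0884 and 0.188 for ACD), either GRN163L array (0.0637, 0.0938 and 0.0885 in that order of genes) or combination array 1 (0.153, 0.188 and 0.219). ACD was also lost without combination array 2, at -0.845. With the compared groups only, the calls of all 3 genes were lost (limma adjusted p 0.0836 for EXOSC5, 0.0842 for RUVBL2 and 0.108 for ACD). Quantile normalization lost RUVBL2 (0.0501) and ACD (0.0723). RUVBL2 was also lost with no filter (0.0586), and ACD with a mean-variance trend (0.0515).

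Of 15 box C/D particle and ribosomal RNA synthesis genes, a list beside the H/ACA machinery, none was called. FBL, the methyltransferase of box C/D particles, had the smallest p there, at -0.56 (adjusted p 0.109), and the list's median was -0.19.

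**Figure D3:**
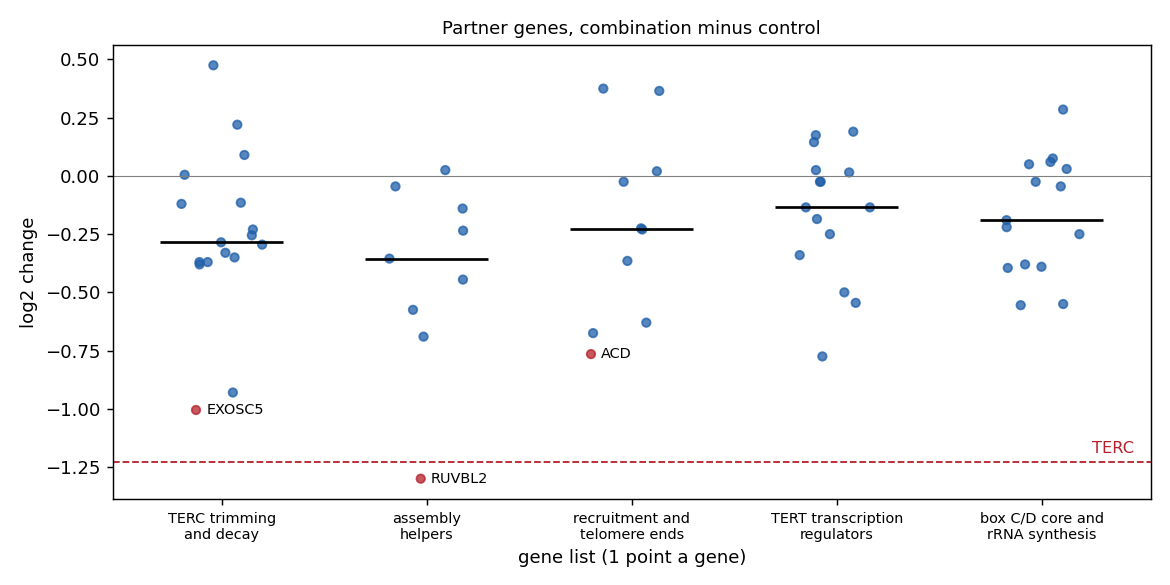
Log2 difference of the combination against control (vertical axis), 1 point a tested gene, by partner list along the horizontal axis; bars are list medians and the dashed line is TERC. Red points are the called genes EXOSC5, RUVBL2 and ACD, and RUVBL2 at -1.30 is the 1 point below TERC at -1.23.

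TERC was set beside other short noncoding RNAs of the same array. Of 50 tested H/ACA RNAs, the class with the same domain, 1 was called in the combination against control. In that comparison 0.756% of all genes tested were called higher and 2.71% lower. The called RNA was SNORA70G, which rose, at 5.71 and 5.58 in the combination against 4.42 and 4.78 in control (limma adjusted p 0.0286). SNORA70G was also called in the average effect of LY2784544, and not in that of GRN163L (0.445, limma adjusted p 0.191). The class median was -0.19, with 35 of the 50 lower and 15 higher, beside 57.1% of all genes tested that were lower. The experiment as a block called 2 of the 50 higher, SNORA70G and SNORA23 (adjusted p 0.0313 for SNORA23), and 2 lower, SNORA24 (0.0324) and SNORA56. In the same comparison the block called 1382 of all 12570 genes tested. In the average effect of GRN163L the H/ACA median was -0.10, and 0 of the 50 lay below TERC. None of the 50 was called there, where 0.382% of all genes tested were called. With the block, which called 282 of 12570 genes tested in that contrast, SNORA23 was called higher and SNORA71A lower.

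Of 78 tested box C/D RNAs, which guide ribose methylation, 62 were lower with the combination, beside 57.1% of all genes tested. The class median was -0.29. Called lower were 2 of the 78, SNORD6 at -1.09 (adjusted p 0.0258) and SNORD116-13 at -1.16 (adjusted p 0.0286), a share near the 2.71% of all genes tested. With the block, which called 1382 of all 12570 genes tested, 15 of the 78 were called lower and 1 higher. Of 14 Cajal body RNAs 6 were lower and 8 higher, and 1 was called lower, SCARNA7. It had 7.56 and 7.69 in the combination, 8.17 and 8.26 with GRN163L, 9.19 and 8.59 with LY2784544, and 9.09 and 8.68 in control. The SCARNA7 difference was -1.26 (adjusted p 0.0265), and as for TERC all arrays with GRN163L lay below those without it, with an average effect of -0.97 (adjusted p 0.0501, and 0.0229 with the block). SCARNA9 differed by 0.70 (adjusted p 0.0899, and 0.0206 with the block, which called it higher). The calls of SNORA70G, SNORD116-13, SCARNA7 and SNORD6 were each lost without either control array or combination array 1, and all but SNORD6 without either GRN163L array, with adjusted p between 0.0556 for SNORD6 and 0.138 for SNORD116-13. Of 5 other short RNAs none was called, and RNU4-1, the U4 spliceosomal RNA, had the largest value at 1.99 (adjusted p 0.0628). With the block 2 of the 5 were called higher, RNU4-1 (adjusted p 0.0204) and RPPH1, the RNA of ribonuclease P, at 1.07 (0.0262).

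**Figure D4:**
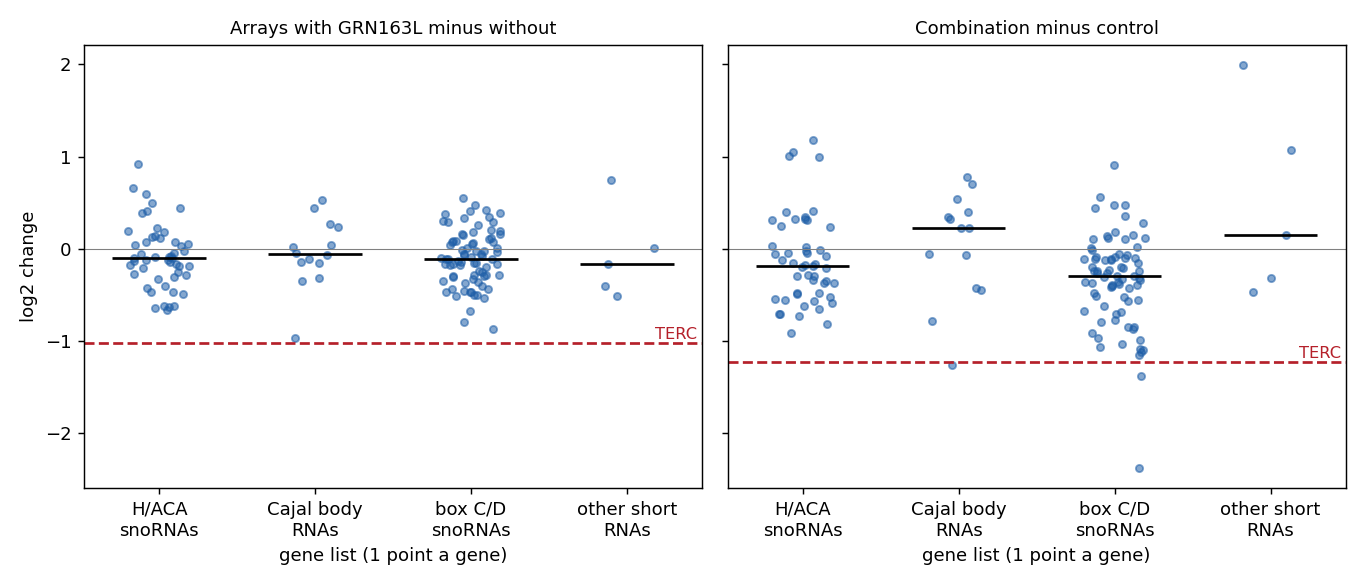
Log2 difference (vertical axis), 1 point a tested RNA, for H/ACA, Cajal body, box C/D and other short RNAs; bars are list medians and the dashed line is TERC. In the average effect of GRN163L (left) no point lies below TERC at -1.02. In the combination against control (right) SCARNA7 and 2 box C/D RNAs lie below TERC at -1.23. These 2 box C/D RNAs were not called and are not SNORD6 or SNORD116-13, and the lower of them is at -2.375.

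The genes nearest TERC on chromosome 3, chosen after their values were seen, had their own values. ACTRT3, 1861 bases away, differed by 0.05 in the combination against control, and MYNN, 8336 bases away, by -0.72 (adjusted p 0.105). The average effect of GRN163L was 0.16 for ACTRT3 and -0.14 for MYNN.

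The 5 genes whose pattern over the 8 arrays was most like TERC were ECE2 (r = 0.99), CCHCR1 (0.98), VAMP8 (0.98), CHLSN (0.97) and NTHL1 (0.97). Their average effects of GRN163L lay between -0.39 for VAMP8 and -0.18 for NTHL1. The 5 most like DKC1 were TMEFF1 (0.99), BRD7 (0.98), PSMA1 (0.97), WDR33 (0.97) and REST (0.97).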

How the data were processed

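The authors made the log2 values with RMA in Affymetrix Expression Console, per the submitters' processing notes. The program version and probe set build were not given in the sources used here. Per the labels, 150 ng of total RNA per sample was amplified. RMA evens out the arrays' distributions and compresses differences between dim probe sets.

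Of 33297 probe sets, 19181 named 1 gene in the platform annotation, and the highest-mean one stood for its gene. Genes under the 30th percentile were left out. A model with 4 group means and 8 contrasts was fitted to all 8 arrays with limma 3.58.1 (R 4.3.3), with Benjamini-Hochberg adjustment over 12570 genes, and called at an adjusted p below 0.05 (4 residual and 4.65 prior degrees of freedom). It was tested on simulated data.

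The replicate number marks a shared experiment in the labels, so it pairs arrays; residuals around group means correlated between same-numbered arrays at r = 0.10 to 0.67. The experiment as a block, filters, normalizations, moderation, probe set choice and leaving out each array were alternatives. The labels name separate experiments but not what separated them, and p-values reflect only how far these arrays vary, which may in part be technical. Members and lists were chosen with earlier results of these data known; named partners are the 2 of each list with the smallest p in the combination against control. Sequences come from RefSeq.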

Additional observations from a re-analysis of the deposited data

Results flagged for a closer look

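The effect of LY2784544 on TERC had opposite signs in every experiment with and without GRN163L: with GRN163L it was -0.99 and -0.14, without it 0.20 and 0.10. The difference of the effects was -0.72, and limma's interaction test gave an adjusted p of 0.999. For GAR1 the effect of GRN163L was -0.03 and -0.13 with LY2784544 and 0.02 and 0.07 without it. The difference of those effects was -0.125, also with an adjusted p of 0.999. Both cases were picked by their signs alone, after the effects of both agents were searched over all the telomerase genes. How many of all genes tested share this sign pattern was not counted, so it is not shown to be unusual.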

How the results depend on the processing

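With the experiment as a block, which uses the pairing of arrays, TERC was called in the combination against LY2784544 (1 telomerase gene called in place of 0, adjusted p 0.0350) and in the average effect of GRN163L (1 in place of 0, 0.0268), and stayed called in the combination against control (0.0173); the block changed no other call of a member. In the combination against control the count fell to 0 with the compared groups only (adjusted p 0.0675), with array medians set equal (0.0524) and, in an alternative chosen after seeing the data, on leaving out both the LY2784544 array and the combination array of experiment 1 (0.102). Leaving out 1 array at a time gave 0 to 1 called gene, with TERC at -1.47 to -0.99; the call was lost without either control array, either GRN163L array or combination array 1. TERC was called in 11 of 19 alternatives, with adjusted p 0.0173 to 0.158. In the average effect of GRN163L the count was 1 with a filter at the 50th percentile (adjusted p 0.0490), array medians set equal (0.0487), a mean-variance trend (0.0418), the mean of probe sets (0.0485), and medians equal together with the block (0.0164), also added after seeing the data, which gave 1 in the combination against LY2784544 too (0.0254). Leaving out 1 array gave 0 to 1 there, 1 without combination array 2 (0.0314), and TERC was called in 7 of 18 alternatives. In the other 5 contrasts no member was called under any alternative. Over all genes, calls ran from 57 to 1385 in the combination against control (436 as reported, 1382 with the block), 0 to 372 in the average effect of GRN163L (48, 282), 123 to 1320 in that of LY2784544 (560, 1305), 0 to 349 in LY2784544 against control (160, 345), 0 to 275 in the combination against LY2784544 (39, 201), 0 to 212 in the combination against GRN163L (68, 212), 0 to 6 in GRN163L against control and 0 to 8 in the interaction. Box C/D RNAs had 15 lower and 1 higher with the block, against 2 and 0. No called value of a member reversed; of 1482 alternative values, 184 uncalled ones changed sign, the largest with a size of 0.34 as reported. The cause of these shifts was not tested. With 2 arrays a group, the intervals limit what could be called.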
